A study of Mus musculus with 2 samples.

Results

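The Sox family of transcription factors was followed in tissue labelled as cortex, from 1 Sox11-null mouse embryo and 1 wild-type littermate. It was followed through the 10 genes of 4 of its subgroups. They are Sox1, Sox2 and Sox3 (SoxB1), Sox4, Sox11 and Sox12 (SoxC), Sox5 and Sox6 (SoxD), and Sox9 and Sox10 (SoxE). The members were all probe sets whose platform annotation names exactly 1 gene, where that gene is one of the 10. This gave 39 probe sets out of 34945 that name 1 gene, and out of 45101 on the array. Between 1 probe set (Sox2) and 8 probe sets (Sox4) stood for a gene.

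Each genotype was represented by 1 Affymetrix expression array of 1 embryo at E17.5. The Sox11-null embryo, Sox11(-/-), and the wild-type embryo, Sox11(+/+), had heterozygous parents of a mixed C57BL/6 and 129 background, and their genotypes were read from tail DNA. One label of the null sample gives its genotype only as Sox -/-, so the gene was taken from the sample's title. The labels do not say which part of Sox11 the null allele lacks. Both libraries also held signal of muscle, lens, epidermis and gland genes, given below, so the Sox values may not be of cortex alone. With 1 array per genotype no test was possible, no value has an error over embryos, and every difference below describes these 2 libraries. The X-inactivation RNA Xist, given below, differed widely between the libraries, so the embryos may also have differed in sex. Sex could then not be separated from genotype in any difference below.

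Sox proteins bind DNA through a high-mobility-group (HMG) box related to that of the sex-determining protein Sry, and bend the DNA they bind. SoxB1 proteins hold neural progenitors in the progenitor state, SoxC proteins act later, in neurons that leave the cell cycle, and SoxD and SoxE proteins act in glia and, outside the brain, in cartilage. SoxD proteins lack an activation domain of their own and work beside SoxE proteins in chondrocytes. Sox10 also marks the neural crest, from which Schwann cells and melanocytes arise.

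A probe set was counted as measured when its deposited signal reached the median of all non-control probe sets on at least 1 array (177.4 for the Sox11-null array and 177.5 for the wild-type array). Of the 39 probe sets, 25 were measured, at least 1 for each of the 10 genes. Of these 25, 22 reached the median on both arrays. The other 3 did so on 1 array only, and are named below. A probe set that passes in this way can enter only as higher on that array or close to equal, so its direction is partly fixed by the filter. Differences are log2 of the Sox11-null signal minus log2 of the wild-type signal, after centring the Sox11-null array on a median difference of 0 over all measured probe sets. Signals are printed as deposited and are not compared between probe sets, because each probe set has its own brightness.

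Among measured probe sets, only those of Sox11 were beyond 1.5-fold. All 6 of its probe sets were at least 1.5-fold lower in the Sox11-null library, while the 19 measured probe sets of the other 9 genes were all within 1.5-fold, at log2 differences from -0.50 to 0.53 (with a loess trend on level removed, the highest, of Sox5, was at 0.60 and so just beyond it). Over all 20669 measured single-gene probe sets, 3.89% were lower by at least 1.5-fold in the Sox11-null library and 6.68% were higher by as much. Against shares that small, 0 of 19 in either direction is near the background and is no result about the other Sox genes. The 19 had a median difference of -0.061, with 11 negative and 8 positive.

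**Figure D1:**
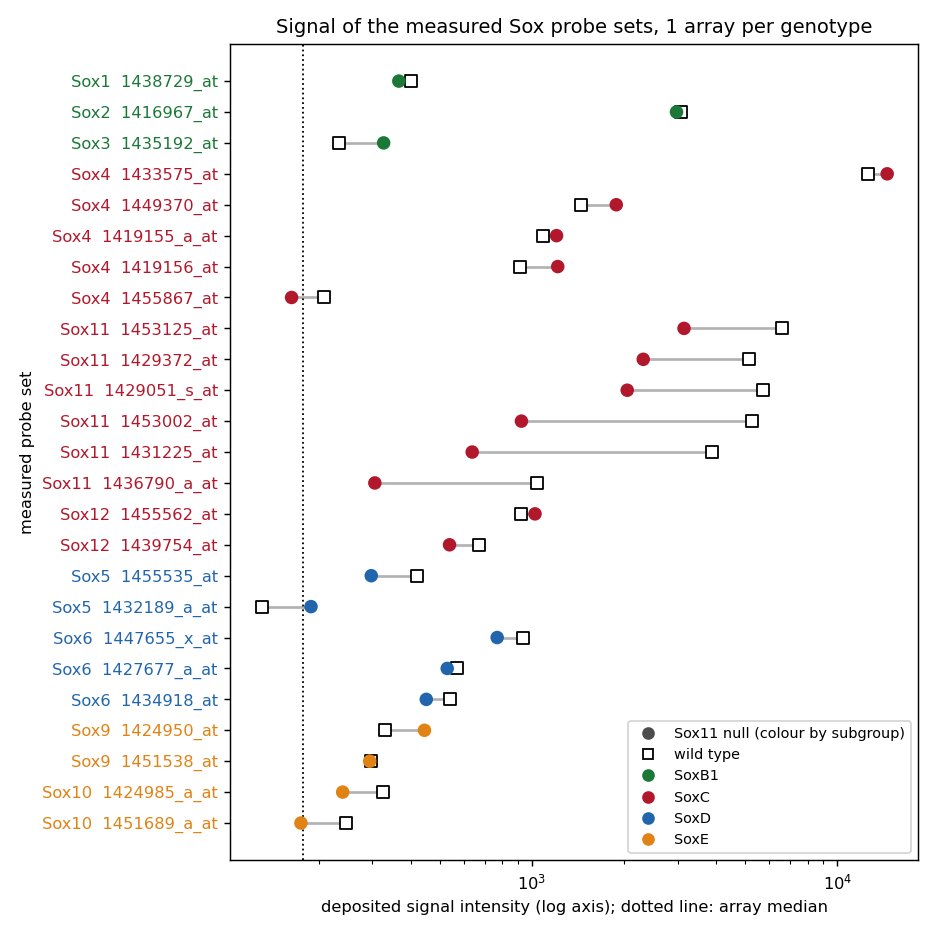
Deposited signal (x axis, log scale) of the 25 measured Sox probe sets (rows, labelled by gene and coloured by subgroup). Filled circles are the Sox11-null array, open squares the wild-type array, 1 array each, and the dotted line is the mean of the 2 array medians. All 6 Sox11 circles lie well to the left of their squares, and no other row has a gap of 1.5-fold.

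Sox11 encodes the SoxC factor that the mutation targets, and its probe sets come first as a check of the labels. Probe set 1431225_at had a signal of 637 in the Sox11-null library, against 3893 in wild type, a log2 difference of -2.62 (6.14-fold lower). Probe set 1453002_at had 924 in the Sox11-null library, against 5252 in wild type (-2.51, 5.71-fold lower). Probe set 1436790_a_at had 306 in the Sox11-null library, against 1038 in wild type (-1.77, 3.41-fold lower). The library labelled Sox11 null was the lower one with each of them.

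The 3 other Sox11 probe sets kept more signal. Probe set 1429051_s_at had 2052 in the Sox11-null library, against 5731 in wild type (-1.49, 2.81-fold lower). Probe set 1429372_at had 2315 in the Sox11-null library, against 5130 in wild type (-1.15, 2.23-fold lower). Probe set 1453125_at had 3149 in the Sox11-null library, against 6582 in wild type (-1.07, 2.10-fold lower). All 6 were therefore at least 2-fold lower, as were 1.04% of all measured probe sets, and all 6 kept a signal above the median of the Sox11-null array.

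The 6 Sox11 probe sets differed in how much signal remained, from 16.4% to 47.8% of the wild-type signal. Probe sets annotated to the same sequence record were close to each other for one record and far apart for another. The 2 probe sets annotated to one record kept 45.1% and 47.8%. The 2 annotated to another kept 17.6% and 35.8%, and the one at 35.8% is of the _s_at type, whose probes can also match other transcripts. The 2 with a record of their own kept 16.4% and 29.5%. Sox11 is a gene with a single exon. The place of each on the transcript is unknown here, and one that lies outside the deleted part does not check the genotype.

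The mean log2 difference of Sox11 was -1.77 ± 0.67 (SD among its 6 probe sets, all read from the same pair of RNA samples, not among embryos). Among the 1969 genes with at least 3 measured probe sets, no other gene had so low a mean. In 4 of the 1969 (0.203%) all measured probe sets were at least 1.5-fold lower. Beside Sox11 these were the growth hormone gene Gh (mean -1.33 over 4 probe sets), the epidermal secreted protein gene Sbsn (-1.09 over 3) and the cornified envelope gene Lor (-0.85 over 3), named after their values were seen. The spread among the Sox11 probe sets was wide as well: 134 of the 1969 genes had an SD at least as large, and the median SD was 0.29.

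Sox4 and Sox12, the SoxC genes that share their DNA-binding domain type and much of their expression with Sox11, were within 1.5-fold with every measured probe set. Of the 5 measured Sox4 probe sets, 4 were higher in the Sox11-null library. Probe set 1433575_at had 14580 in the Sox11-null library, against 12634 in wild type (log2 difference 0.20). Probe set 1419156_at had 1215 in the Sox11-null library, against 914 in wild type (0.40).

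The remaining Sox4 probe sets were split. Probe set 1449370_at had 1889 in the Sox11-null library, against 1444 in wild type (0.38), and 1419155_a_at had 1204 in the Sox11-null library, against 1083 in wild type (0.15). Probe set 1455867_at went the other way, with 163 in the Sox11-null library, against 208 in wild type (-0.36), and it reached the median in wild type only. The mean was 0.15 ± 0.31 (SD over 5 probe sets within 1 pair of samples), so over all 5 the mean was smaller than the SD. Both values include 1455867_at, which could enter only as lower in the Sox11-null library or close to equal. The 4 that reached the median on both arrays were all higher in the Sox11-null library, from 0.15 to 0.40, and within 1.5-fold. Another 3 Sox4 probe sets were not measured: 1419157_at was at 130 in the Sox11-null library and 143 in wild type, and the other 2 were at or below 44.6 on both arrays.

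Sox12 gave opposite signs with its 2 measured probe sets. Probe set 1455562_at had 1023 in the Sox11-null library, against 923 in wild type (0.14). Probe set 1439754_at had 537 in the Sox11-null library, against 669 in wild type (-0.32). The third, 1456882_at, was not measured (3.70 and 20.4). Over the 7 measured probe sets of Sox4 and Sox12, 5 were positive and 2 negative, with a median of 0.15.

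**Figure D2:**
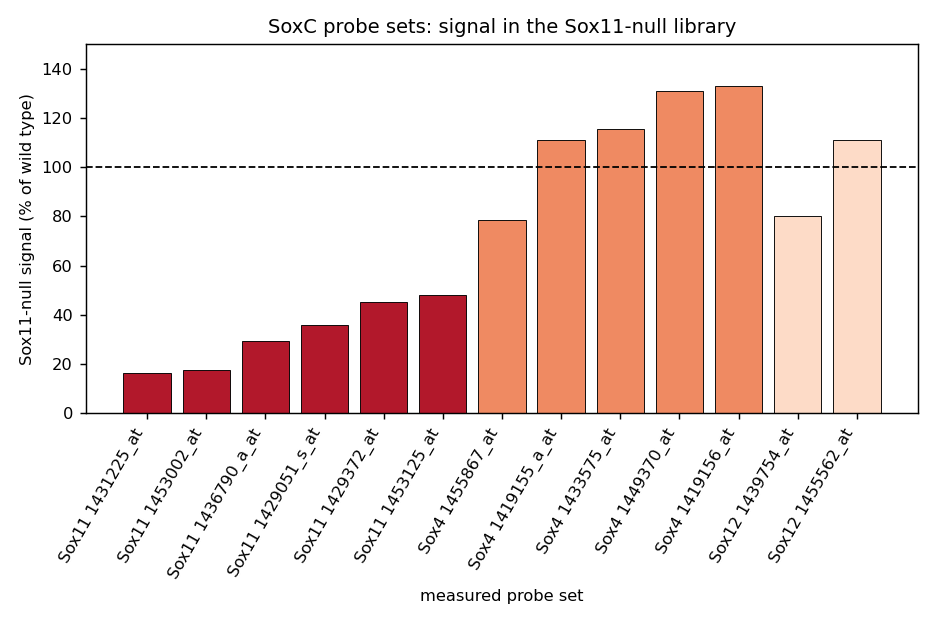
Signal of the 13 measured SoxC probe sets in the Sox11-null library as a percentage of the wild-type signal (bars, from 0, 1 array per genotype, deposited signals without the centring shift). The dashed line marks equal signal. The 6 Sox11 bars lie between 16.4% and 47.8%, and the 7 bars of Sox4 and Sox12 between 78.3% and 133%.

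The promoter-side sequence of the 3 SoxC genes is shown because Sox11 signal remained in the null library and because these are the genes whose signals the comparison sets side by side. Each line gives the 250 bases before the annotated start of the gene, from RefSeq on GRCm38.p6, all on the minus strand and written 5′ to 3′ in the direction of transcription. The windows are chr12:27342719-27342968 for Sox11, chr13:28953700-28953949 for Sox4 and chr2:152398047-152398296 for Sox12. Capitals mark the motifs searched for on both strands: the Sox core sites ACAAAG and AACAAT, the POU octamer ATGCAAAT and the CCAAT box CCAAT, which reads ATTGG on the other strand. None of these motifs holds another. The motifs were chosen after the windows had been seen.
Sox11: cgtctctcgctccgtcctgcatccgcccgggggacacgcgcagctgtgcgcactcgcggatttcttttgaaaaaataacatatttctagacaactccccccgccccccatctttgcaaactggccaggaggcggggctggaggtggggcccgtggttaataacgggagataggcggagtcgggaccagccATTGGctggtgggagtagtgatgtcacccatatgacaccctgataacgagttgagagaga
Sox4: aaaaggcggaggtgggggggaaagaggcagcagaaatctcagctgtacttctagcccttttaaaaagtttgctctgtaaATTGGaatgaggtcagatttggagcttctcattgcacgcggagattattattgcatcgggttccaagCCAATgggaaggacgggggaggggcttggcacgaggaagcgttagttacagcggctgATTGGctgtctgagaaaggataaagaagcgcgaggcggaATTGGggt
Sox12: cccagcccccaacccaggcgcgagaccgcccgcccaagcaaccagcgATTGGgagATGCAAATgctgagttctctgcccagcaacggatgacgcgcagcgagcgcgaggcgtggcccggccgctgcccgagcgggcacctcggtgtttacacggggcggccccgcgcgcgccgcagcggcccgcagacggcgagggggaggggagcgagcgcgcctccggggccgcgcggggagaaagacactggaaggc

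A CCAAT box, the binding motif of the general factor NF-Y, was present in all 3 windows. The Sox11 window held 1, at 60 to 56 bases before the start. The Sox4 window held 4 and the Sox12 window 1. The same motif occurs in 33.8% of the 32851 windows of this length in the RefSeq table. The POU octamer, bound by POU factors such as Pou3f2 that partner Sox proteins on DNA, was found in the Sox12 window only (195 to 188 bases before the start), and in 1.60% of all windows. Neither Sox core site was found in the 3 windows, against 16.5% of all windows for ACAAAG and 9.42% for AACAAT. Of the other members, Sox1, Sox2, Sox5 and Sox6 have windows in that table, with 1 window each for Sox1, Sox2 and Sox5 and 6 for Sox6. ACAAAG was in the Sox2 window and in 5 of the 6 Sox6 windows, and AACAAT in 1 Sox6 window. The CCAAT box was in the Sox1 and Sox2 windows and in 2 Sox6 windows, so it is not particular to the SoxC genes.

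SoxB1 genes, which mark neural progenitors, gave 1 measured probe set each. Sox2, the SoxB1 gene best known from neural and embryonic stem cells, had 2975 in the Sox11-null library, against 3088 in wild type (log2 difference -0.061). Sox1, a marker of the early neural plate that also drives crystallin genes in the lens, had 366 in the Sox11-null library, against 403 in wild type (-0.14). Sox3 had 327 in the Sox11-null library, against 232 in wild type (0.48), the widest gap of the 3.

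Sox3 lies on the X chromosome, and the X-inactivation RNA Xist differed between these libraries, at 155 in the Sox11-null library and 17505 in wild type with its brightest probe set (log2 difference -6.83). The part of this in the Sox3 value was not tested. The second probe sets of Sox1 (1422205_at, 61.1 and 77.8 in the Sox11-null and wild-type libraries) and Sox3 (1450485_at, under the 25th percentile of both arrays) were not measured. Sox2ot, a long non-coding RNA gene that spans Sox2, had 457 in the Sox11-null library, against 374 in wild type (0.28).

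Radial glia are the progenitors in which SoxB1 genes are expressed. Of 10 measured radial glia genes, the Notch effector Hes5 was at least 1.5-fold lower, with 358 in the Sox11-null library, against 640 in wild type (-0.85, with -0.25 by its other probe set). The other 9 were within 1.5-fold by their brightest probe set, although Slc1a3 (0.094) reached 0.98 by another. Over all 12390 measured genes, each by its brightest probe set, 3.61% were lower by at least 1.5-fold and 2.72% higher by as much, with a median of -0.027, and the radial glia median was -0.18. A count of 1 in 10 is no result about progenitor genes. Of the partner factors of Sox proteins, 4 of 5 were measured and all 4 were within 1.5-fold. The POU gene Pou3f3 was at -0.095, Pax6 at 0.17, Pou3f2 at 0.24 and the proneural gene Neurog2 at 0.35. Neurog1, the fifth, was below the 25th percentile on both arrays.

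Genes that SoxC proteins have been reported to activate showed no shared direction. The neuronal tubulin gene Tubb3 had 5207 in the Sox11-null library, against 4484 in wild type (0.21), and the Hippo pathway factor gene Tead2 had 716 in the Sox11-null library, against 670 in wild type (0.089). Dcx, the microtubule protein of migrating neurons, had 3245 in the Sox11-null library, against 4403 in wild type (-0.45), although its other measured probe sets ran from -0.14 to 0.93. Map2, the dendritic microtubule protein, had 5872 in the Sox11-null library, against 6011 in wild type (-0.041), with -0.51 to 1.61 by its other probe sets. Prox1 was not measured (163 and 73.0), and Pou4f2 was not analysed here. In the wider list of newborn neuron genes 8 of 9 were within 1.5-fold by their brightest probe set. Map1b was higher (0.80, with -0.17 by its other probe set), as were 2.72% of all measured genes. Of the 9, 7 were negative, against 6728 of all 12390 measured genes. The list median was -0.20, against -0.027 over all measured genes, and it was -0.00056 with all probe sets of each gene averaged.

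SoxD genes gave 5 measured probe sets out of 11. Sox6, which acts in chondrocytes, in red blood cell precursors and in muscle fibre type, was slightly lower with all 3 measured probe sets. Probe set 1447655_x_at had 769 in the Sox11-null library, against 934 in wild type (-0.29). Probe set 1434918_at had 451 in the Sox11-null library, against 537 in wild type (-0.26), and 1427677_a_at had 528, against 566 in wild type (-0.11). The mean was -0.22 ± 0.096 (SD over 3 probe sets within 1 pair of samples), within 1.5-fold.

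Sox5, which acts with Sox6 in cartilage and controls the timing of deep-layer neuron production in the cortex, had probe sets that disagreed. Probe set 1455535_at had 297 in the Sox11-null library, against 419 in wild type (-0.50). Probe set 1432189_a_at had 189 in the Sox11-null library, against 130 in wild type (0.53), and it reached the median in the Sox11-null library only, so it could enter only as higher there or close to equal. A further 5 Sox5 probe sets were not measured. Of these 1423500_a_at was at 106 in the Sox11-null library and 174 in wild type (-0.72). Probe set 1432190_at, annotated to the same record as 1432189_a_at, was below the 25th percentile in the Sox11-null library (13.2) and at 119 in wild type, at least 2.27-fold lower. The 2 probe sets of that record thus pointed opposite ways, both at low signal.

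SoxE genes gave 4 measured probe sets out of 6. Sox9, the master regulator of cartilage that also directs progenitors towards the glial fate, had 445 in the Sox11-null library, against 330 in wild type, with 1424950_at (0.42). Its other measured probe set, 1451538_at, annotated to the same record, had 294 in the Sox11-null library, against 296 in wild type (-0.018). The gap between these 2 probe sets of 1 transcript record is as wide as the larger difference itself.

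Sox10, the regulator of oligodendrocytes and neural crest derivatives, was lower with both measured probe sets, short of 1.5-fold. Probe set 1424985_a_at had 240 in the Sox11-null library, against 326 in wild type (-0.45). Probe set 1451689_a_at had 175 in the Sox11-null library, against 246 in wild type (-0.50), and reached the median in wild type only, so it could enter only as lower in the Sox11-null library or close to equal. The first of them, which passed on both arrays, is the one whose direction the filter did not fix. The third probe set, 1425369_a_at, was not measured (54.3 in the Sox11-null library and 15.9 in wild type).

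Genes of the cells in which Sox10 acts were mostly within 1.5-fold. All 6 measured oligodendrocyte lineage genes were within 1.5-fold by their brightest probe set, with a median of -0.059. Among them were Pdgfra, the receptor of oligodendrocyte precursors (0.23), Olig1 (-0.24) and Olig2 (0.20). Cnp (0.088) reached 0.81 by another probe set. Of 8 measured genes of the neural crest, Schwann cells and melanocytes, 2 were at least 1.5-fold lower, against 3.61% of all measured genes, and both are pigment cell genes. Mitf, the melanocyte master regulator and a known Sox10 target, had 208 in the Sox11-null library, against 377 in wild type (-0.86). The melanin enzyme gene Tyrp1 had 174 in the Sox11-null library, against 298 in wild type (-0.78, with -1.12 by its other probe set), and reached the median in wild type only. The other melanocyte genes Dct (-0.28) and Pmel (-0.097), and Erbb3, the neuregulin receptor of Schwann cell precursors (-0.28), were within 1.5-fold. Ednrb (0.14), Ngfr (0.053) and Ret (0.012) were positive and within 1.5-fold by their brightest probe set. By other probe sets Ednrb was at 0.49 and 0.79, and Ret at 0.21. The list median was -0.19. In bulk tissue fewer cells of a type and less RNA per cell cannot be told apart, and this holds for each of these values.

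**Figure D3:**
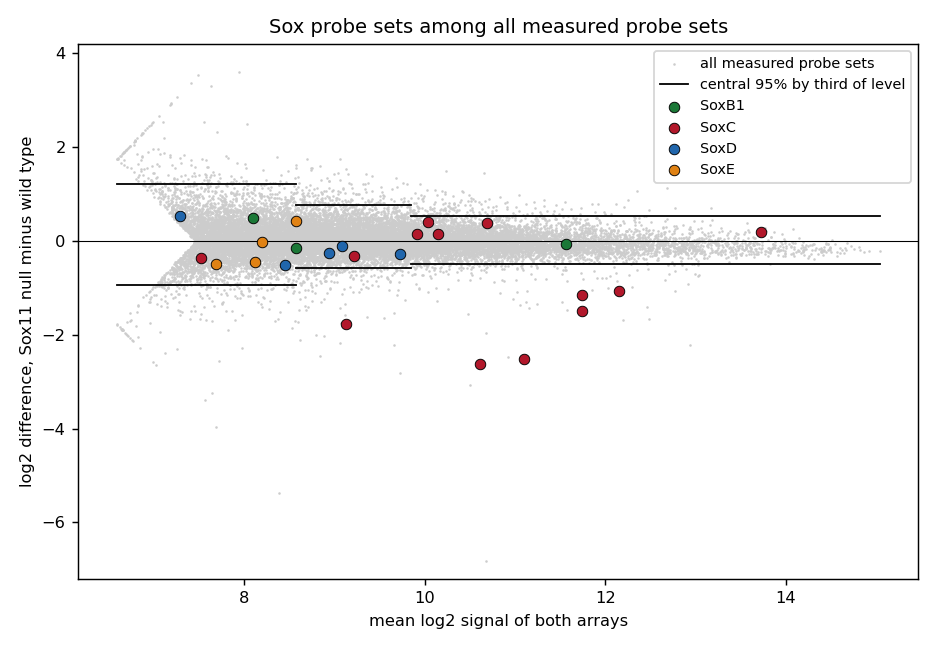
Log2 difference, Sox11 null minus wild type (y axis), against mean log2 signal (x axis) of all measured probe sets in grey, with the 25 Sox probe sets coloured by subgroup. Black lines bound the central 95% of differences in each of 3 equal level classes. The 6 Sox11 points lie below the lower lines and the other 19 Sox points lie between the lines.

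Differences spread more widely among dim probe sets. With the measured probe sets put into 3 equal classes by level, 95% of the differences of the dimmest class lay between -0.94 and 1.22. The bounds were -0.58 and 0.76 in the middle class, and -0.48 and 0.54 in the brightest. These ranges mix biological and technical differences and replace no replicates. All 19 probe sets of the other 9 genes lay within the range of their class, and none of the 6 Sox11 probe sets did. Of the 14 unmeasured Sox probe sets, 2 were beyond 1.5-fold lower (both Sox5, above) and 1 beyond 1.5-fold higher (Sox6 1426018_a_at, 86.5 in the Sox11-null library and 53.1 in wild type). Another 6 were below the 25th percentile of both arrays and have no fold.

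Family members outside the 4 subgroup sets were also within 1.5-fold by their brightest probe set. Of 10 listed genes 6 were measured, with a median of -0.016. The endothelial and lymphatic factor Sox18 had 591 in the Sox11-null library, against 484 in wild type (0.28), and the endothelial factors Sox17 and Sox7 were at -0.042 and -0.27. Sox8, the third SoxE gene, was at 0.38, and Sox13, the third SoxD gene, at -0.23. Sox21, a SoxB2 gene that counters SoxB1 activity, was at 0.0099, but its second probe set had 291 in the Sox11-null library, against 183 in wild type (0.66). Sox14, Sox15, Sox30 and Sry were not measured.

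Both libraries held signal of cells outside the cortex in which Sox genes act, and some of these signals differed between the libraries. The muscle gene Acta1 had 23519 in the Sox11-null library and 23182 in wild type. The gland gene Bpifa2 had 17131 in the Sox11-null library and 21963 in wild type. The 10 measured cortical genes, Neurod6 and Bcl11b among them, were all within 1.5-fold by their brightest probe set (-0.16 and -0.13, list median -0.17). By other measured probe sets Neurod2 was at -0.87 and Cux1 ran from -0.28 to 1.97, while those of Bcl11b and Cux2 were within 1.5-fold. Fezf2 (0.41) reached the median in the Sox11-null library only. Lens genes were at least 1.5-fold lower in 9 of 9 cases, and the count was 7 to 9 over the processing alternatives (median -0.73, summed signal 23504 in the Sox11-null library and 39477 in wild type), against 3.61% of all measured genes. Of the 9, Bfsp1 and Bfsp2 reached the median in wild type only, and the 7 that reached it on both arrays were all lower as well. Sox1 and Sox2 are also lens regulators, and the part of lens RNA in their values was not tested.

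Cartilage genes, targets of Sox9 with Sox5 and Sox6, were negative in 9 of 10 cases by their brightest probe set. Over all 12390 measured genes 6728 were negative. Among the cartilage genes, Col9a2 (-0.45) reached the median in wild type only. By their other measured probe sets Col9a1 was at 0.24, Col9a3 at -1.24 and Col11a1 at -0.0044. The list median was -0.33, and the cartilage matrix gene Matn1 had 236 in the Sox11-null library, against 447 in wild type (-0.93). It was the only one of the 10 beyond 1.5-fold by its brightest probe set, against 3.61% lower among all measured genes. Collagen II (Col2a1) was at -0.33 and aggrecan (Acan) at -0.40. The summed signal was 9055 in the Sox11-null library and 10507 in wild type. The part of cartilage RNA in the Sox5, Sox6 and Sox9 values was not tested.

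In the epidermis list 6 of 10 genes were at least 1.5-fold lower, against 3.61% of all measured genes, and all 6 are of the layers above the basal one. Ivl (-1.49) is among the 6 and reached the median in wild type only. Flg was at -1.95, Krt10 at -1.66 and Krt1 at -1.41, while the basal layer genes Krt5 (0.080), Krt15 (0.17), Trp63 (-0.11) and Krt14 (-0.42, with -0.23 and -0.13 by its other probe sets) were within 1.5-fold. The summed signal was 26052 in the Sox11-null library and 45829 in wild type. Of 6 measured gland genes, among whose cells Sox10 is also expressed, Pip (-1.11) and Dcpp1 (-1.19) were lower and 4 were within 1.5-fold. Of these 4, Bpifa2 was at -0.37 and Smgc at -0.49 (0.087 by its other probe set), while Amy1 (0.31) and Aqp5 (0.47) were positive. Dcpp1 reached the median in wild type only. All 10 muscle genes were within 1.5-fold (median 0.045). The slow-fibre genes Myh7 (0.49) and Tnni1 (0.46) were the highest of the list, while the slow-fibre gene Tnnt1 was at -0.036. The parts of these tissues in the Sox6 and Sox10 values were not tested.

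Astrocyte genes, among which Sox9 is used as a marker, were within 1.5-fold in 8 of 8 measured cases by their brightest probe set (median -0.065). So were 11606 of all 12390 measured genes. Other probe sets went beyond it both ways, up to 1.82 for Gja1 and 0.99 for Nfia, and down to -0.64 for Nfib and -0.81 for S100b. The 5 measured genes of 7 listed as inputs or partners of Sox9 and Sox10 were also within 1.5-fold, from Tfap2a at -0.49 to Pax3 at 0.19 (median -0.10). Of the erythroid genes, in whose precursors Sox6 acts, Alas2 alone was measured (0.46). Over all 16 lists, 113 genes were measured, of which 21 (18.6%) were at least 1.5-fold lower and 1 (0.88%) higher. Among all measured genes the shares were 3.61% and 2.72%. The lists were chosen with earlier results of these data known. The pooled shares therefore depend on which lists were taken and are no separate result. Of the 21, 5 reached the median in wild type only, and 17 of the 21 came from the lens, epidermis and gland lists.

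**Figure D4:**
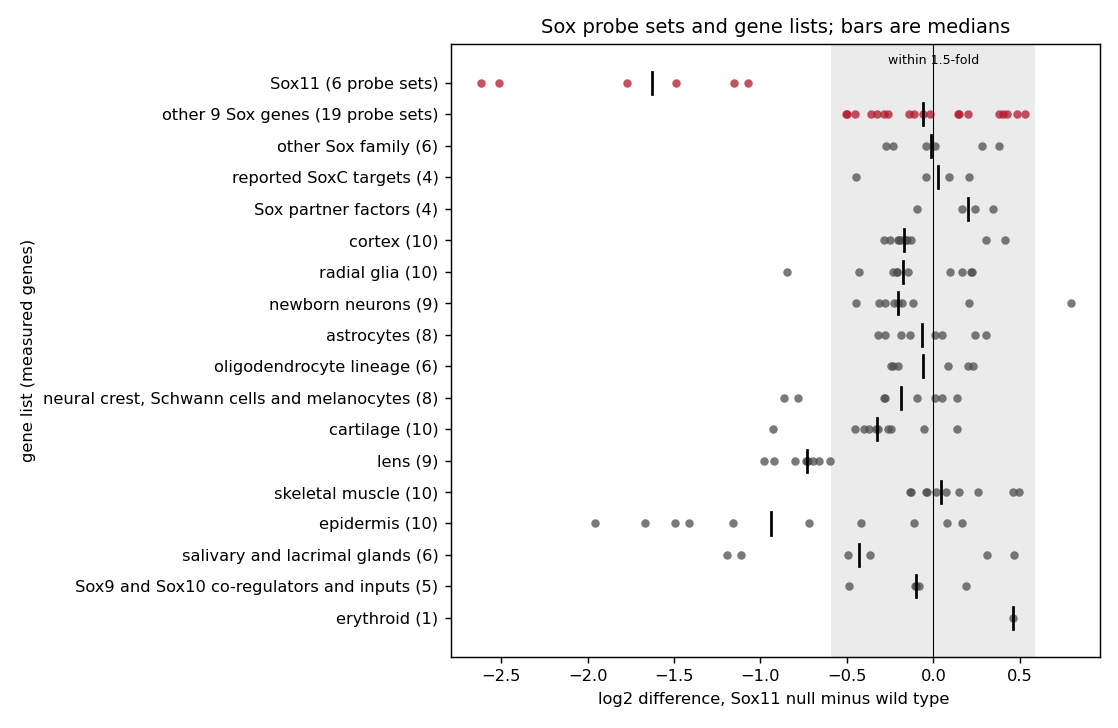
Log2 differences, Sox11 null minus wild type (x axis), of the Sox probe sets (red) and of the measured genes of each list (grey points, number in brackets, each gene by its brightest probe set). Black bars are medians and the shaded band is within 1.5-fold. Sox11 lies left of the band with all 6 probe sets, the other Sox probe sets lie inside it, and the lens and epidermis lists are the ones with medians left of it.

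As facts of the arrays as a whole, the log2 signals correlated at r = 0.961 over measured probe sets, a correlation across features of these libraries. Signal at the 3′ end over that at the 5′ end, a measure of RNA integrity, came to 1.16 on the Sox11-null array and 1.78 on the wild-type array for beta-actin. For Gapdh it came to 0.82 on the Sox11-null array and 0.92 on the wild-type array. The part of this in the differences among Sox11 probe sets was not tested.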

How the data were processed

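Total RNA (10 µg per embryo) was labelled as biotinylated cRNA, per the labels' protocols. The deposited values are linear signal intensities, 1 for each probe set on each array, made by the authors with Affymetrix Expression Console, per the submitters' processing notes. Neither the summary algorithm nor a genome build is named in the sources at hand, and no detection calls were used. Both arrays had a mean of 500.002 after trimming 2% at each end, as scaling to a common target gives.

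The 64 control probe sets were left out, and 34741 of 34945 single-gene symbols were updated by gene number through RefSeq (GRCm38.p6). Using Python 3.11.15, log2 values of the Sox11-null array were moved by -0.0069, and values under the 25th percentile of their array (52.5 Sox11 null, 52.9 wild type) were raised to it. Measured probe sets reached the array median on 1 array or both. A fold against a value at the floor is a lower bound. Genes in lists were represented by their brightest probe set (mean log2 of both arrays). With 1 array per genotype, genes were counted at 1.5-fold and no test was run. The number of arrays limits the precision. The calculation was tested on simulated data.

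All Sox probe sets are named. Lists of up to 10 measured genes could be named in full, and from longer ones up to 4 genes beyond 1.5-fold each way and the 2 brightest. The members, lists and thresholds were chosen with earlier results of these data known.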

Additional observations from a re-analysis of the deposited data

How the results depend on the processing

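No paired analysis was possible because each genotype has 1 array, and for the same reason no array could be left out. Results were recomputed with quantile normalization, with no centring, with a loess trend taken out, with no floor or one at the array median, with no filter or one at the 75th percentile, and without _s_at and _x_at probe sets. For the lists, all probe sets of each gene were also averaged. All 6 Sox11 probe sets stayed at least 1.5-fold lower in each setting that kept them (5 without the _s_at type). Of 125 recomputed Sox log2 differences, 124 moved by less than 0.39, the pooled SD among probe sets of a gene. The exception was Sox5 1432189_a_at, at 0.082 with the floor at the median. With the loess trend removed the same probe set was at 0.60, so that 1 Sox probe set other than those of Sox11 was beyond 1.5-fold higher. With no filter 2 were lower and 1 was higher. Over the lists, 13 genes were at least 1.5-fold lower with the filter at the 75th percentile, against 21, and 2 were higher with no filter, against 1. Neither pigment cell gene passed the stricter filter. Over all probe sets, 804 were at least 1.5-fold lower and 1380 higher. The floor at the median gave 518 and 998. The counts were 1760 and 2422 with no filter, and 241 and 426 with the stricter filter. By genes they were 447 and 337, against 889 and 655 with no filter and 160 and 111 with the stricter filter. Changed filters test other numbers of features, and the causes of the other shifts were not tested. Dim probe sets limit what can be said of Sox3, Sox5 and Sox10, whose measured probe sets are all in the dimmest level class.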
